A study of Mus musculus with 7 samples.

Results

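The 7 genes described here encode the core of the inflammasome, from sensors to the pore-forming protein that ends the pathway: Nlrp3, Nlrc4, Aim2, Pycard, Casp1, Casp4 and Gsdmd. They were picked by name for their roles, with earlier results of these data known. Each of the 7 had a row among the 20354 in the deposited count table. They lie on chromosomes 11 (Nlrp3), 17 (Nlrc4), 1 (Aim2), 7 (Pycard), 9 (Casp1 and Casp4) and 15 (Gsdmd). RNA was sequenced from the nonparenchymal fraction of the liver, which is meant to hold every cell type but hepatocytes, of untreated C57BL/6J mice aged 2 months. The Shp2 knockout group (n = 3 libraries) came from Shp2 f/f mice carrying 1 copy of a Clec4f-Cre transgene, which is active in the liver's own macrophages, called Kupffer cells, and deletes there Ptpn11, the gene of the phosphatase Shp2. The wild-type group (WT, n = 4 libraries) is labelled only as WT, without its floxed allele or Cre status. One label field names a different gene for each knockout library (Shp1, Shp2, Shp3), but every title names Shp2, and the grouping follows the titles. Nothing in the labels ties a library to a separate mouse, so p-values reflect only how far the libraries spread, and part of that spread may be technical.

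An inflammasome is a protein complex that forms when a cytosolic sensor meets a microbial product or a sign of damage. NLRP3 reacts to many disturbances of the cell, NLRC4 to bacterial flagellin and secretion proteins that NAIP receptors bind, and AIM2 to double-stranded DNA in the cytosol. The adaptor ASC, encoded by Pycard, links sensors to caspase-1, which matures the interleukin precursors pro-IL-1β and pro-IL-18. Caspase-1 and the mouse caspase encoded by Casp4, which binds bacterial lipopolysaccharide directly, both cut gasdermin D, whose released part forms pores in the plasma membrane and leads to the lytic death called pyroptosis. In the liver, Kupffer cells meet bacterial products that arrive from the gut in portal blood.

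The promoters of 4 members are shown because the results turn on them: Pycard, the member whose groups did not overlap, Nlrc4, the only member with a negative log2 fold change, and Casp1 and Casp4, neighbours on chromosome 9 with the most similar profiles. Each window runs 5′ to 3′ along the gene's strand, from 250 bases before to 50 bases after the annotated start, and was taken from RefSeq on GRCm38.p6, which is not the build of the counts. Capitals mark matches on either strand to the motifs searched.
Pycard promoter, chr7:127993818-127994117, minus strand: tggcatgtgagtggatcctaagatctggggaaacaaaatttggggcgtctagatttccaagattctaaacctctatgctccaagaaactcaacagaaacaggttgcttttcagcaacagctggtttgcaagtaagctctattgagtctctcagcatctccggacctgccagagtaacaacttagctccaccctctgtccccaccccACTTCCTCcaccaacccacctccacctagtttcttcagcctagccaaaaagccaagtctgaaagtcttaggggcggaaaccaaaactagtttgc
Nlrc4 promoter, chr17:74459059-74459358, minus strand: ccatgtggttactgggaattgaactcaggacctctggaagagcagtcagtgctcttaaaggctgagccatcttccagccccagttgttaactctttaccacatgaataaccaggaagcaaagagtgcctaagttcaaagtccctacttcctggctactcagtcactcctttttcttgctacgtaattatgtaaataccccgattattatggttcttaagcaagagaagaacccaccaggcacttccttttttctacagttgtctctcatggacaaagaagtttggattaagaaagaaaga
Casp1 promoter, chr9:5298267-5298566, plus strand: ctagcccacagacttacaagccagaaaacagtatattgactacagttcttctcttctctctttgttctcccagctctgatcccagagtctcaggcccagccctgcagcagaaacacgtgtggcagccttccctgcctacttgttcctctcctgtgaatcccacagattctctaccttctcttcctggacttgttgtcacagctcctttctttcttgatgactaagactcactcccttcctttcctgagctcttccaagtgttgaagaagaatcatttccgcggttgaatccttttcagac
Casp4 promoter, chr9:5308599-5308898, plus strand: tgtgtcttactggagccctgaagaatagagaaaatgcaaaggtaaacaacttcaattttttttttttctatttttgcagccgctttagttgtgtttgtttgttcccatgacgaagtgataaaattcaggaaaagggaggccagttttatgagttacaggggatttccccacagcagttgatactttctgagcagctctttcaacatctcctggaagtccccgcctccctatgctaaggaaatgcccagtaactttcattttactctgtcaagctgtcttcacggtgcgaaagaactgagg
Of the 7 members, 6 had a promoter in the table, the exception being Gsdmd. The motifs were the interferon response element (GAAA, any 2 bases, GAAA), the gamma-activated site TTCNNNGAA, the PU.1 element GAGGAAGT, the CCAAT box CCAAT and the TATA box TATAAA. These were found in 3.44%, 8.30%, 3.20%, 37.4% and 13.6% of the 32851 promoter windows of the table, in that order. The Pycard window held 1 PU.1 element, on the strand opposite to the gene and beginning 44 bases before the start, while the Nlrc4, Casp1 and Casp4 windows held no match to any motif. Aim2 also held 1 PU.1 element, which overlapped the end of a CCAAT box. The 6 members had 8 windows, as Nlrp3 and Casp4 each had more than 1. Of the Nlrp3 windows, 1 held a CCAAT box, beginning 96 bases before its annotated start, and the other held no match. The Casp4 window that is not shown held no match either. A match describes the letters and not a bound site.

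Library totals lay between 15263666 and 32003205 counts in the knockout group and between 11678385 and 26545605 counts in WT. Levels below are in CPM, depth-scaled counts with TMM factors for library composition. A count of 0 would allow up to 3 counts, or 0.0908 to 0.249 CPM, for counting error only. Each of 3 libraries stands apart from the others: the ribosomal RNA gene Rn18s made up 7.54% of knockout replicate 3 and at most 0.122% of any other library, mitochondrial genes took 33.2% in knockout replicate 2 and 17.3% to 22.4% in the other libraries, and WT replicate 2 held the highest summed levels of Kupffer cell markers (9780 CPM) and sinusoidal endothelial markers (8020 CPM). Ptpn11 did not differ detectably in the whole fraction (log2 fold change -0.09 ± 0.18 SE; edgeR quasi-likelihood test, adjusted p = 0.974), where Kupffer cells are 1 of several cell types and the gene's count also covers exons outside any deleted part. Clec4f stood at 435 to 864 CPM in knockout and 1390 to 2650 CPM in WT libraries, without overlap (edgeR, adjusted p = 0.487). Of the markers with a row, listed for 12 cell types, none was at 0 in every library, and hepatocyte markers, which the fraction should hold little of, still summed to 17800 to 38400 CPM in knockout and 18900 to 57200 CPM in WT libraries.

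All 7 members were expressed in every library and passed the filter on low counts. Per kb of transcript, Casp1 was the most abundant of them in every library and the sensor genes Nlrp3 and Nlrc4 the least. Divided by the length of the longest principal transcript of each gene (GENCODE M21, GRCm38), Casp1 reached 95.4 ± 17.3 CPM per kb in knockout (SD, n = 3) and 75.8 ± 14.8 CPM per kb in WT libraries (SD, n = 4). Casp4 followed at 37.3 ± 3.30 and 32.2 ± 7.42 CPM per kb, and Gsdmd at 35.4 ± 12.3 and 28.7 ± 3.48 CPM per kb, in knockout and WT libraries in turn. Casp4 lay above Gsdmd in 5 of 7 libraries, so these neighbours in the order do not differ beyond their spread. Aim2 was at 19.0 ± 2.28 and 16.5 ± 3.61 CPM per kb, below both in 7 of 7 libraries.

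Pycard was at 7.93 ± 0.514 CPM per kb in knockout and 6.05 ± 1.27 CPM per kb in WT libraries, below Aim2 and above both Nlrp3 and Nlrc4 in 7 of 7 libraries. Its annotated transcript of 3.80 kb is longer than the whole gene in RefSeq, 2.495 kb. With that span, which counts any introns, the means would be 12.1 and 9.21 CPM per kb. A spliced transcript can be shorter than the span and would raise these values, so the place of Pycard below Aim2 depends on the annotation. Over all annotated exons, Casp4 would be at 14.4 and 12.5 CPM per kb, below Aim2 at 15.4 and 13.4 CPM per kb, so the place of Casp4 depends on the annotation. Nlrp3 stood at 2.38 ± 0.624 CPM per kb in knockout and 1.72 ± 0.426 CPM per kb in WT libraries, and Nlrc4 at 1.84 ± 0.195 and 2.44 ± 0.273 CPM per kb. Per kb, Nlrp3 was above Nlrc4 in 3 of 3 knockout libraries and in 0 of 4 WT libraries. The order in knockout replicates 1 and 2 rests on the division by length. Without it, Nlrp3 and Nlrc4 were at 8.11 and 8.17 CPM in knockout replicate 1 and at 8.16 CPM each in knockout replicate 2. In knockout replicate 3 Nlrp3 was also higher without it, at 12.5 against 9.76 CPM.

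**Figure D1:**
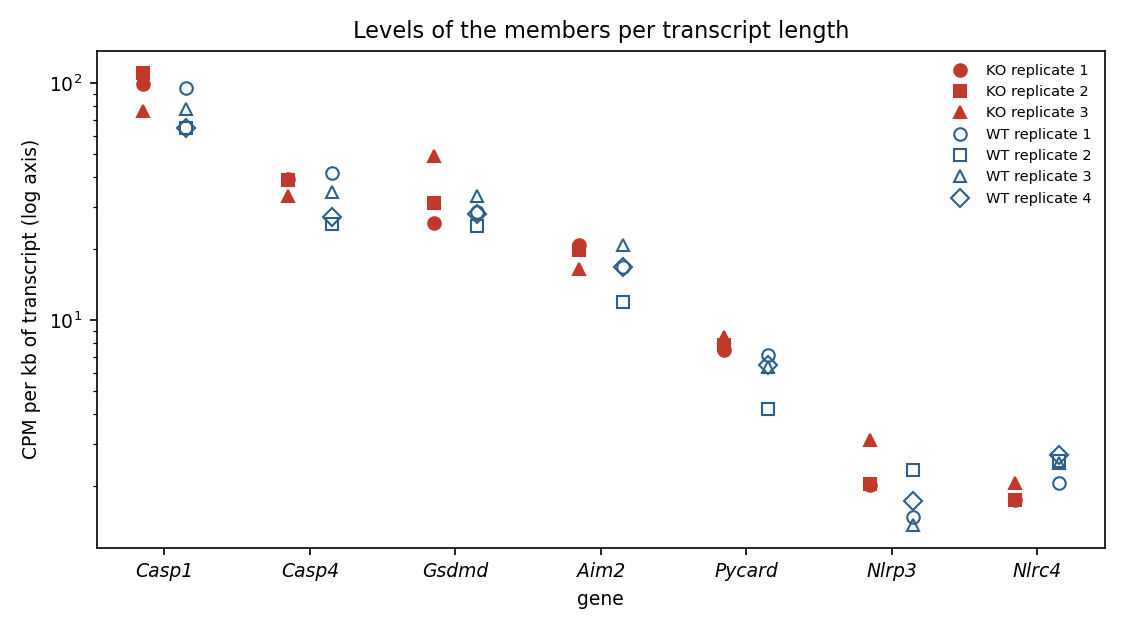
CPM per kb of transcript (log axis) of each member in each library, knockout (filled red) left of WT (open blue). Casp1 lies highest in all 7 libraries, and Nlrp3 lies above Nlrc4 in the 3 knockout libraries and below it in the 4 WT libraries. The order of this pair in knockout replicates 1 and 2 rests on the division by length.

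The knockout and WT libraries were compared to ask whether losing Shp2 in Kupffer cells alters the inflammasome genes of the nonparenchymal fraction. Of the 7 members, 6 had positive log2 fold changes, as had 51.7% of all genes tested, and Nlrc4 a negative one, with sizes between 0.20 and 0.47, and none differed beyond the spread between libraries. In edgeR's quasi-likelihood test, 0 of 7 members passed an adjusted p of 0.05, as did 0% of the 14077 genes tested, and each member had an adjusted p of 0.956. At an unadjusted p under 0.05 there were 0 of 7 members, against 4.62% of all genes. Other tools also called 0 members. At an unadjusted p under 0.05, DESeq2 had 1 member (5.54% of all genes), limma voom 0 (4.53%) and voom weighted by library quality 3 (11.5%). The median log2 fold change was 0.30 over the members and 0.01 over all genes tested. The fraction is a mixture, so a change in the number of cells of a type and a change in RNA per cell cannot be told apart in any of these values.

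**Figure D2:**
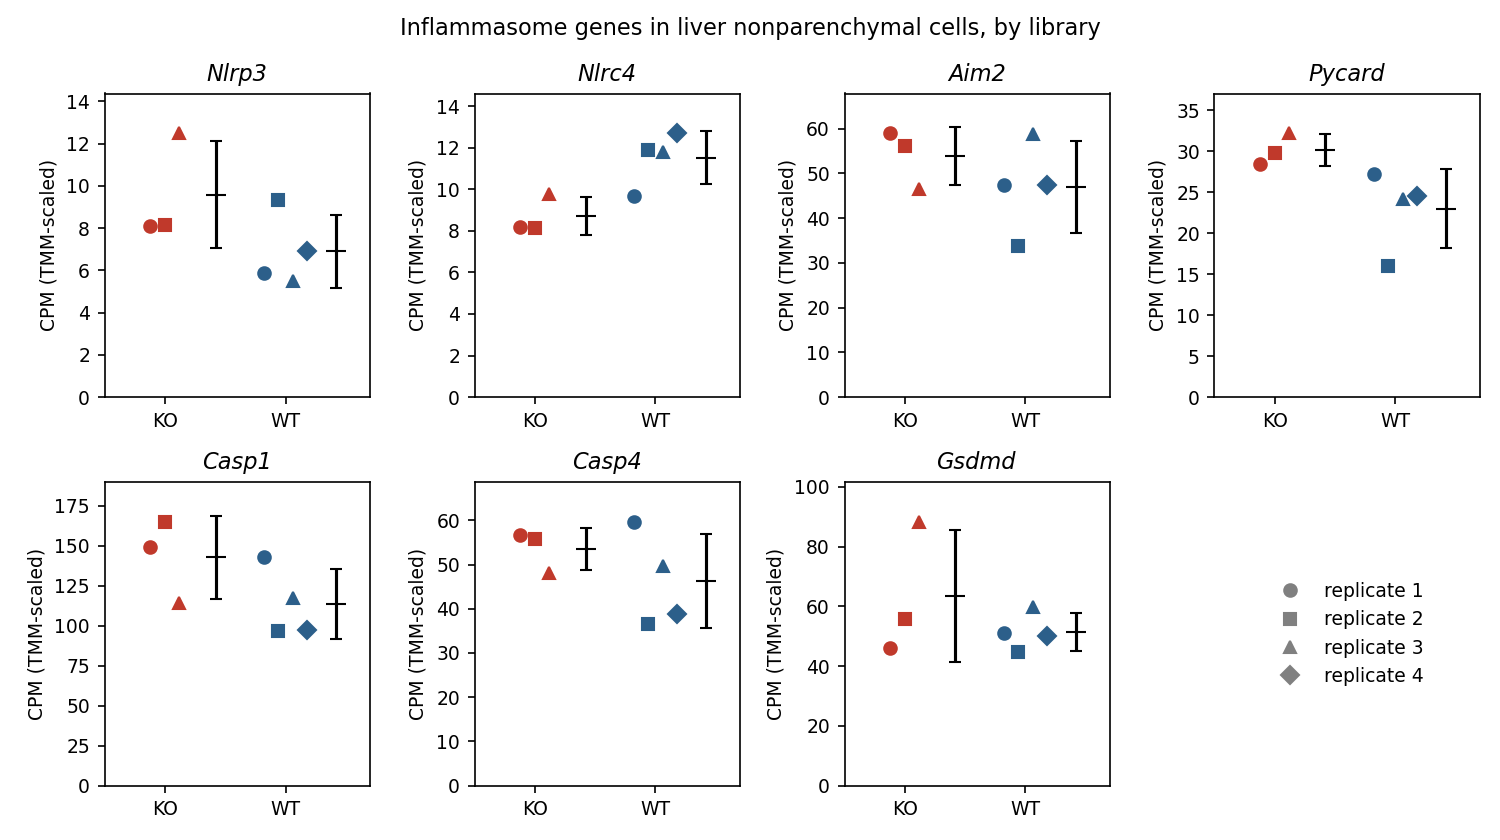
CPM of the 7 members (vertical axes, each starting at 0) in knockout and WT libraries, with a symbol per replicate and bars giving mean ± SD. Only Pycard has every knockout library above every WT library, and knockout replicate 3 is highest for Nlrp3, Pycard and Gsdmd.

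Among the sensors, Nlrp3 had 8.11, 8.16 and 12.5 CPM in knockout replicates 1 to 3, against 5.90, 9.31, 5.48 and 6.93 CPM in WT replicates 1 to 4. The groups overlapped through WT replicate 2, and knockout replicate 3 was the highest library. Its log2 fold change was 0.47 ± 0.28 (SE), with a 95% interval of -0.14 to 1.08 (edgeR, adjusted p = 0.956). The lowest of these values rests on 66 counts, whose 95% Poisson interval of 4.24 to 6.97 CPM covers counting error only. Without WT replicate 2 Nlrp3 had an unadjusted p of 0.0367 (adjusted p = 0.982) at a log2 fold change of 0.64, and without knockout replicate 3 an unadjusted p of 0.387 (adjusted p = 0.902) at 0.23.

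Nlrc4, the sensor that works with NAIP receptors, had 8.17, 8.16 and 9.76 CPM in knockout replicates 1 to 3, against 9.68, 11.9, 11.8 and 12.7 CPM in WT replicates 1 to 4. Only WT replicate 1 fell inside the knockout range, just under knockout replicate 3. The log2 fold change was -0.41 ± 0.21 (SE), with a 95% interval of -0.88 to 0.07 (edgeR, adjusted p = 0.956; exact permutation test over the 35 choices of 3 of 7 libraries, two-sided, p = 0.0857). It stayed between -0.50 and -0.36 in 17 alternative settings. With DESeq2 the unadjusted p was 0.0496 (adjusted p = 0.898), and without knockout replicate 3 in edgeR 0.0331 (adjusted p = 0.831).

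As Nlrp3 and Nlrc4 lay on opposite sides of 0, their ratio within each library, which does not depend on scaling, was also read, a choice made after the values were seen and given without a test. Nlrp3 counts were 0.993, 1.00 and 1.28 times Nlrc4 counts in knockout replicates 1 to 3, against 0.610, 0.779, 0.465 and 0.546 times in WT replicates 1 to 4. These groups did not overlap.

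Aim2, the DNA sensor, had 59.0, 56.2 and 46.6 CPM in knockout replicates 1 to 3, against 47.5, 33.7, 58.8 and 47.5 CPM in WT replicates 1 to 4. WT replicate 2 was the lowest library by a wide margin, and the remaining WT libraries lay within the range of the knockout libraries. The log2 fold change, 0.20 ± 0.21 (SE; 95% interval -0.26 to 0.67; adjusted p = 0.956 in edgeR), became 0.07 without WT replicate 2.

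The adaptor gene Pycard had 28.4, 29.8 and 32.2 CPM in knockout replicates 1 to 3, against 27.2, 16.0, 24.2 and 24.5 CPM in WT replicates 1 to 4. Every knockout library lay above every WT library, by a margin of little more than 1 CPM over WT replicate 1, as was the case for 3.03% of all genes tested, with 3.05% lower without overlap and 6.07% in either direction. The log2 fold change was 0.39 ± 0.21 (SE), with a 95% interval of -0.08 to 0.86 (edgeR, adjusted p = 0.956; exact permutation test, two-sided, p = 0.0571, where 0.0286 is the smallest this design allows). Without WT replicate 2 the log2 fold change was 0.25, and with counts scaled by library size only the groups overlapped. A gene annotated on the opposite strand covers 12.8% of the Pycard exons in GENCODE M21, and the library kit does not mark strand.

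Pycard was the single member without overlap, and this count moves with the libraries used. It was 2 without WT replicate 1, knockout replicate 1 or knockout replicate 2 (Pycard and Nlrc4 each time), 2 without WT replicate 2 (Pycard and Nlrp3) and 3 without knockout replicate 3 (Pycard, Nlrc4 and Casp1). The share over all genes in these fits lay between 9.18% and 18.9%. With both WT replicate 2 and knockout replicate 3 left out, Nlrp3, Nlrc4, Pycard and Casp1 did not overlap, 4 of 7, when 25.3% of all genes did not. Aim2, Casp4 and Gsdmd overlapped in each of these fits.

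Casp1 and Casp4 had similar profiles over the libraries. Casp1, the protease of the canonical inflammasome, had 149, 165 and 114 CPM in knockout replicates 1 to 3, against 143, 96.4, 117 and 97.2 CPM in WT replicates 1 to 4. Casp4, which acts without a sensor complex, had 56.7, 55.8 and 48.1 CPM, against 59.7, 36.6, 49.6 and 38.9 CPM in the same order. WT replicate 1 was high and WT replicate 2 low for both, and the groups overlapped for both. Log2 fold changes were 0.33 ± 0.22 for Casp1 (SE; 95% interval -0.16 to 0.82) and 0.21 ± 0.21 for Casp4 (SE; 95% interval -0.25 to 0.67), with adjusted p = 0.956 each (edgeR).

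The Casp4 to Casp1 ratio was the steadiest of the ratios tested. It stayed between 0.338 and 0.426 over the 7 libraries, and its log2 value was -1.40 ± 0.16 in knockout (SD, n = 3) and -1.30 ± 0.07 in WT libraries (SD, n = 4), with a difference of -0.10 (exact permutation test, two-sided, p = 0.314). The promoters shown above for the neighbouring genes held none of the motifs searched. Reads that the related sequences of Casp4 and Casp12 share may have been dropped or split in counting.

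Gsdmd, the executioner, had 46.2, 55.9 and 88.4 CPM in knockout replicates 1 to 3, against 51.1, 44.8, 59.9 and 50.1 CPM in WT replicates 1 to 4. Knockout replicate 3 alone stood above all other libraries, and knockout replicate 1 lay below 3 of the 4 WT libraries. The log2 fold change, 0.30 ± 0.23 (SE; 95% interval -0.21 to 0.82; adjusted p = 0.956 in edgeR), turned to -0.01 without knockout replicate 3, the library with 7.54% of its counts in Rn18s.

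**Figure D3:**
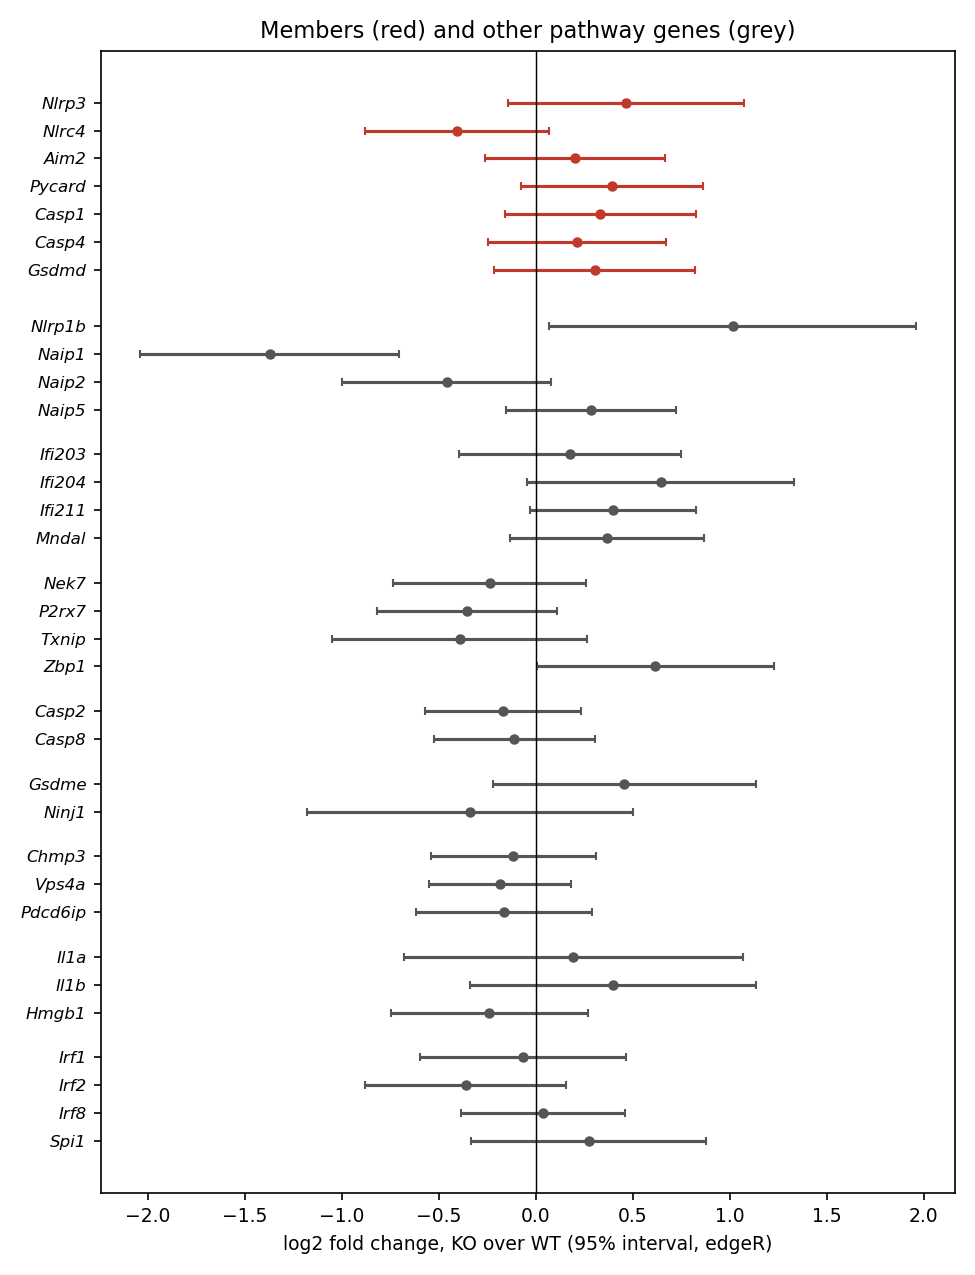
Log2 fold change of knockout over WT with its 95% interval (edgeR, horizontal axis) for the members (red) and other pathway genes named in the text (grey), grouped by role. All 7 member intervals include 0, and among the other genes shown those of Nlrp1b, Naip1 and Zbp1 do not.

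Ratios between members were compared as a check that does not move with the scaling of a library, 5 in all. The log2 ratio of Nlrc4 to Pycard was -1.78, -1.86 and -1.71 in knockout replicates 1 to 3, against -1.48, -0.42, -1.03 and -0.95 in WT replicates 1 to 4. Each knockout library lay below each WT library, and the difference was -0.82 (exact permutation test, two-sided, p = 0.0571, adjusted p = 0.286 over the 5 ratios). The differences in log2 ratio were -0.19 for Aim2 to Pycard, 0.05 for Nlrp3 to Pycard and -0.08 for Gsdmd to Casp1, with exact permutation p-values of 0.314, 0.943 and 0.800, and none of the 5 passed adjustment.

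Cell type marker sums differed between libraries as well. WT replicate 2 held the lowest CPM of Aim2, Pycard, Casp1, Casp4 and Gsdmd, and the members summed to 249 CPM in it, against 278 to 345 CPM in the other WT libraries and 352 to 379 CPM in the knockout libraries. Casp1 alone made up 39.3% of the sum on average in knockout and 37.8% in WT libraries, and the sums were not tested between groups. WT replicate 2 also had the lowest summed markers of monocytes and recruited macrophages (375 CPM) and of neutrophils (62.7 CPM) and the highest of Kupffer cells and endothelium. Kupffer cell markers summed to 3560 to 4590 CPM in knockout and 4830 to 9780 CPM in WT libraries, with 9 of 10 log2 fold changes below 0. Among these markers, Slc40a1, an iron exporter, and Clec4f were the most abundant. Clec4f, the gene that names the Cre driver, was at 435 to 864 CPM in knockout and 1390 to 2650 CPM in WT libraries. It therefore adds to the gap between the sums. Clec4f gave 864 of the 4590 CPM in knockout replicate 3 and 1390 of the 4830 CPM in WT replicate 3. Without Clec4f, the sum in knockout replicate 3 would lie above that in WT replicate 3, so the groups would overlap.

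General macrophage markers summed to 3310 to 3580 CPM in knockout and 2790 to 4320 CPM in WT libraries, with 3 of 8 above 0. Markers of monocytes and recruited macrophages summed to 591 to 1280 CPM in knockout and 375 to 739 CPM in WT libraries, with 7 of 8 above 0, and Plac8 and Ccr2 were the most abundant. Neutrophil markers, led by S100a9 and S100a8, summed to 100 to 380 CPM in knockout and 62.7 to 143 CPM in WT libraries, with 6 of 9 tested above 0. The part of cell composition in the values of the members was not tested.

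**Figure D4:**
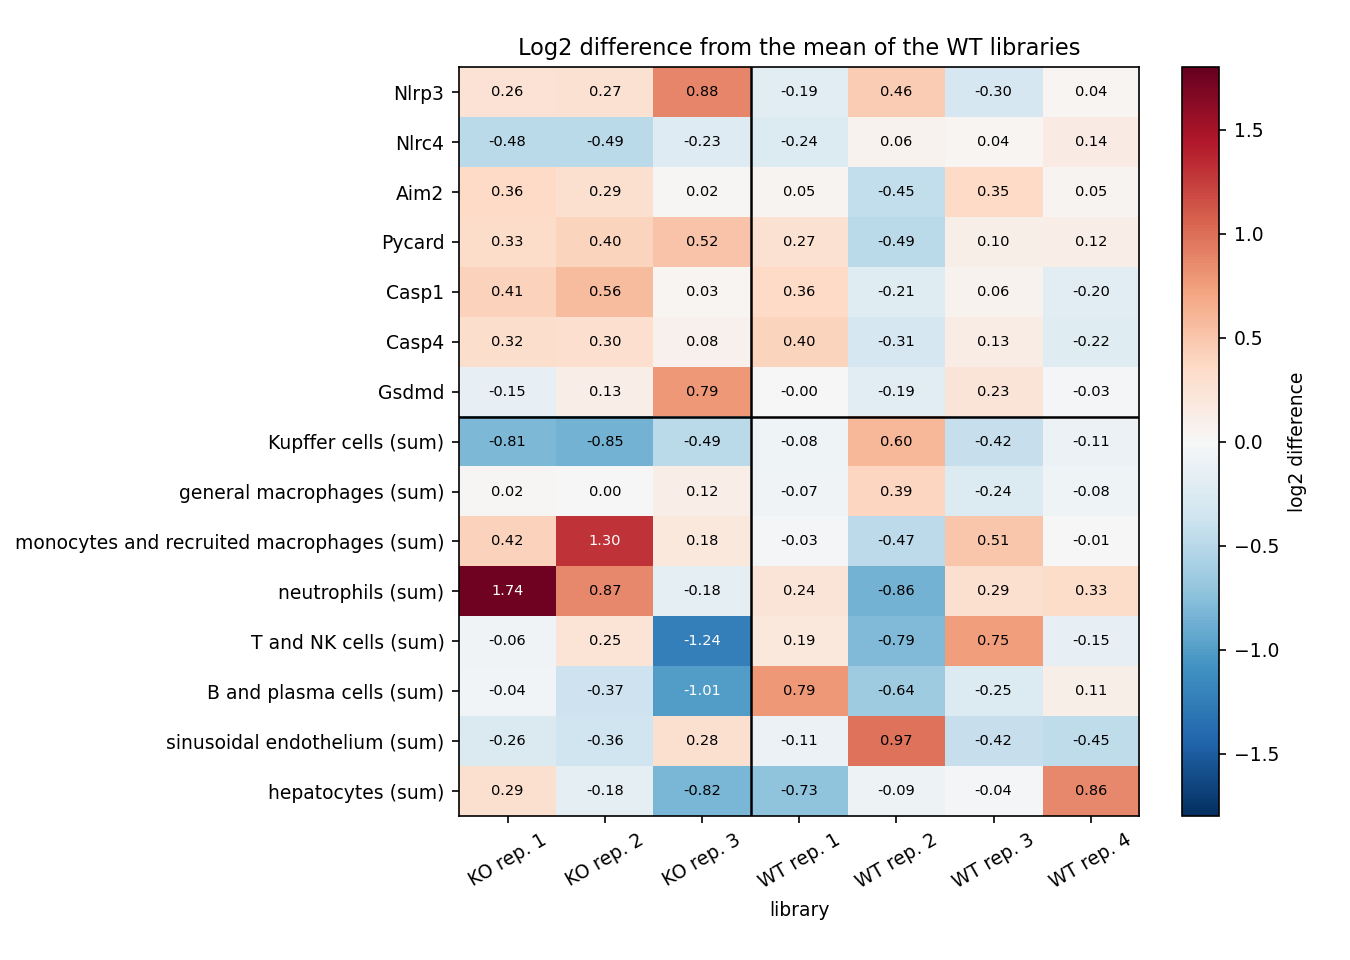
Log2 difference of each library from the mean of the WT libraries for the 7 members (upper rows, log2 CPM) and for summed cell type markers (lower rows, log2 of the sum), knockout libraries left of the line and WT libraries right of it. WT replicate 2 is low in 5 members and high in Kupffer cell (0.60) and endothelial (0.97) markers. Kupffer cell markers, Clec4f among them, are at -0.81, -0.85 and -0.49 in the knockout libraries.

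Profiles over the 7 libraries were compared by the mean absolute difference between log2 CPM values centred on each gene's mean, which counts both shape and size. Within the pathway core the nearest pair was Casp1 and Casp4, 0.09 apart, and Aim2 lay 0.16 from Casp4. Casp1 and Nlrc4 were the farthest apart, at 0.46. Nlrp3, Nlrc4 and Gsdmd each lay at least 0.26 from every other member. Among the 12148 other genes of at least 2 CPM, the nearest to each member by the same measure were Clspn and Epb41l1 for Nlrp3 (0.09 each), Gpat4 for Nlrc4 (0.04), and Odf2l (0.03) and 0610030E20Rik (0.04) for Aim2. Cox14 and Ift27 were nearest to Pycard (0.06 and 0.07), Utp14b and Eps8 to Casp1 (0.05 and 0.06), Mitd1 and Naa20 to Casp4 (0.06 each), and Usp19 and Usp36 to Gsdmd (0.05 each). With 7 libraries and so many genes, close profiles arise easily, and these names are a description only.

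Around the core, 67 further genes of the pathway were listed in 8 groups by role, of which 58 had a row and 57 were tested. None passed in edgeR over all genes (0 of 57), and 2 higher and 1 lower had an unadjusted p under 0.05, Nlrp1b and Zbp1 against Naip1, beside 2.27% higher and 2.35% lower over all genes. DESeq2 called 1, Naip1, and voom with and without library weights 0. The median log2 fold change was 0.00, with 29 above and 28 below 0. The count at unadjusted p under 0.05 was 7 without WT replicate 1 (5.05% of all genes in that fit) and 6 without knockout replicate 3 (5.93%). It was 1 without WT replicate 4 (4.96%) and 1 without knockout replicate 2 (4.47%).

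The NAIP receptors, which pass their bacterial ligands on to NLRC4, did not move as a family. Naip1, which in mice binds the needle protein of bacterial secretion systems, had 8.29, 7.80 and 6.30 CPM in knockout replicates 1 to 3, against 12.6, 29.1, 19.6 and 16.3 CPM in WT replicates 1 to 4. The groups did not overlap, and WT replicate 2 was the highest. Its log2 fold change was -1.37 ± 0.30 (SE; edgeR, unadjusted p = 0.000987, adjusted p = 0.419), and DESeq2 called it (adjusted p = 0.00723). In the other alternatives its adjusted p lay between 0.0805 (voom weighted by library quality) and 0.946 (without knockout replicate 2). Its log2 fold change stayed between -1.53 and -0.997 throughout.

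Naip2, which binds the inner rod protein of these secretion systems, had 40.5, 40.3 and 40.2 CPM in knockout replicates 1 to 3, against 46.7, 83.7, 47.2 and 44.2 CPM in WT replicates 1 to 4 (log2 fold change -0.46 ± 0.24 SE; edgeR, adjusted p = 0.956). Naip5, a flagellin receptor, was the most abundant of them in 6 of 7 libraries, with 66.7, 70.7 and 71.5 CPM in knockout, against 54.4, 44.7, 74.4 and 55.2 CPM in WT libraries, and Naip6, named after its values were seen, had a log2 fold change of 0.40. Summed over Naip1, Naip2, Naip5 and Naip6, the levels were 154, 166 and 161 CPM in knockout and 143, 183, 183 and 148 CPM in WT libraries, which overlapped. These genes are close copies of each other, so reads they share may have been dropped or split between them.

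Of the 10 other sensors and NAIPs tested, 0 passed in edgeR, 4 had positive and 6 negative log2 fold changes, and 4 did not overlap, 1 higher and 3 lower, against 3.03% higher and 3.05% lower over all genes. The sensor gene Nlrp1b had 8.75, 14.2 and 9.27 CPM in knockout replicates 1 to 3, against 8.30, 1.86, 6.56 and 4.58 CPM in WT replicates 1 to 4. Its log2 fold change was 1.01 ± 0.43 (SE; edgeR, adjusted p = 0.956). Nlrp10, named after its values were seen, was the remaining gene without overlap, at 0.741 to 0.817 CPM in knockout and 1.01 to 1.09 CPM in WT libraries.

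The AIM2-like receptors, DNA-binding proteins whose genes lie next to Aim2 on chromosome 1 in RefSeq's gene order, included the widest differences between libraries of the pathway. Of 10 tested, 0 passed in edgeR and 0 had an unadjusted p under 0.05. On the log2 scale 9 lay above 0, against 51.7% of all genes tested, and the median was 0.38, against 0.01. As neighbours related in sequence, these genes are not separate observations. Ifi213, named after its values were seen, had 32.1, 54.0 and 1.92 CPM in knockout replicates 1 to 3, against 25.4, 0.827, 2.24 and 1.34 CPM in WT replicates 1 to 4, a range of 65.2-fold. Knockout replicates 1 and 2 and WT replicate 1 were high and the other 4 libraries low, a split that runs across the groups. The log2 fold change was 1.97 ± 1.16 (SE; adjusted p = 0.956 in edgeR), and leaving out knockout replicate 2 gave 1.19, while leaving out WT replicate 1 gave 4.36 (adjusted p = 0.383).

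Ifi206 and Ifi209, the nearest listed neighbours of Ifi213 on its sides and named after their values were seen, were split the same way. Ifi206 had 13.3, 19.9 and 2.97 CPM in knockout, against 12.1, 3.15, 3.90 and 2.73 CPM in WT libraries. Ifi209 had 87.1, 107 and 34.8 CPM in knockout, against 76.2, 21.4, 45.3 and 35.8 CPM in WT libraries. Ifi204 had 138, 190 and 92.8 CPM in knockout, against 138, 80.7, 73.9 and 66.8 CPM in WT libraries, with the same 3 libraries highest. Aim2, which stands next to Ifi206, did not show this split, with its second highest value in WT replicate 3. Ifi204 (log2 fold change 0.64 ± 0.31), Ifi211 (0.40 ± 0.19), Mndal (0.37 ± 0.23) and Ifi203 (0.18 ± 0.26), the last pair being the most abundant at 265 and 372 CPM on average, had adjusted p-values of 0.956 to 0.958 (edgeR; ± SE). The genes of this cluster are related in sequence, so shared reads limit how far they can be told apart.

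**Figure D5:**
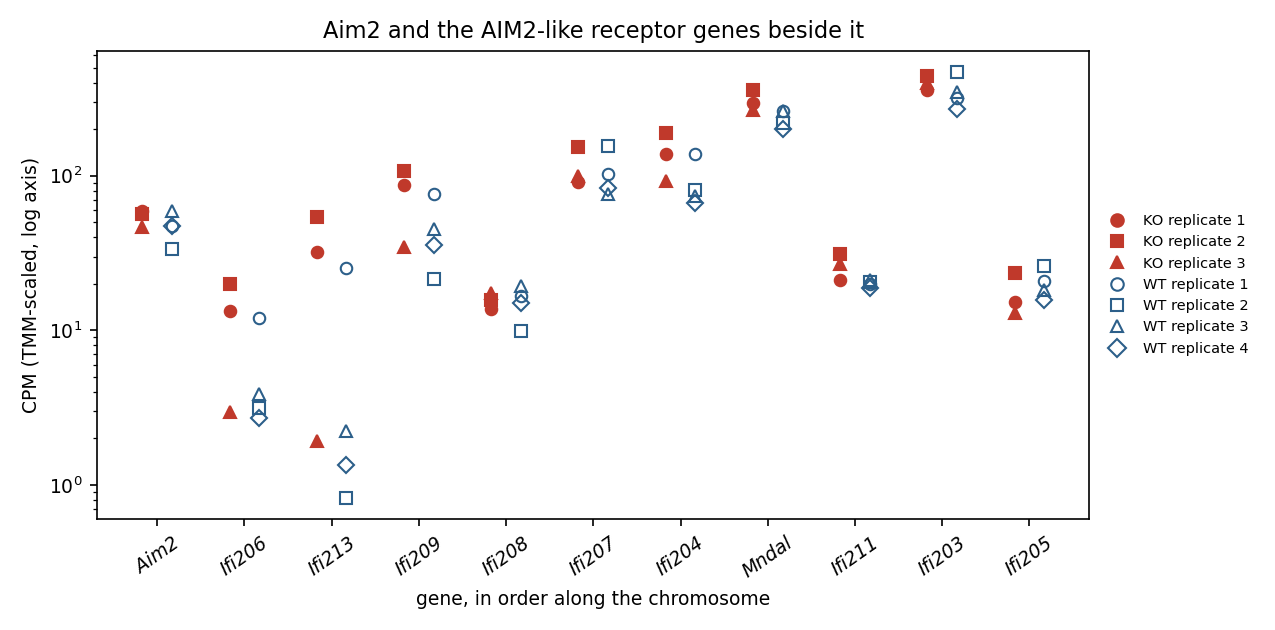
CPM (log axis) of Aim2 and the 10 AIM2-like receptor genes in their order along chromosome 1, knockout (filled red) left of WT (open blue). Knockout replicates 1 and 2 and WT replicate 1 stand above the other 4 libraries for Ifi206, Ifi213, Ifi209 and Ifi204, and not for Aim2.

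Triggers and licensing factors of the inflammasome had 0 of 10 passing in edgeR, with 4 above 0. Zbp1, a nucleic acid sensor that can start NLRP3 activation, had 20.2, 45.1 and 44.6 CPM in knockout replicates 1 to 3, against 27.2, 20.9, 25.6 and 21.7 CPM in WT replicates 1 to 4 (log2 fold change 0.62 ± 0.28 SE; edgeR, adjusted p = 0.956). Knockout replicate 1 lay below every WT library. Nek7, the kinase that NLRP3 needs, was at -0.24 ± 0.22, Txnip at -0.39 ± 0.30 and P2rx7, the ATP-gated channel whose opening triggers NLRP3, at -0.35 ± 0.21 (log2 ± SE).

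The remaining groups held no gene past an unadjusted p of 0.05 in edgeR. Of 7 other caspases tested, 2 were above 0, and the apoptotic genes Casp8 and Casp2 had log2 fold changes of -0.11 ± 0.19 and -0.17 ± 0.18 (SE). Of 9 further gasdermin and membrane rupture genes, 2 were tested: Gsdme, which encodes another pore-forming gasdermin, was at 0.46 ± 0.31, and Ninj1, which breaks the membrane after gasdermin pores form, at -0.34 ± 0.38 (SE). Ninj1 had 27.7, 28.9 and 83.7 CPM in knockout replicates 1 to 3, against 48.0, 66.8, 47.2 and 73.9 CPM in WT replicates 1 to 4. Knockout replicate 3 was again the highest library, as for Gsdmd, and the other knockout libraries were the lowest. The log2 fold change of Ninj1 was -1.06 without knockout replicate 3 (edgeR, adjusted p = 0.825) and -0.08 without knockout replicate 1. Membrane repair genes of the ESCRT machinery, which removes pores, had 1 of 7 above 0, and Vps4a, Pdcd6ip and Chmp3 lay between -0.18 and -0.12.

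Il1b, the classic product of the pathway, had 72.7, 34.7 and 42.5 CPM in knockout replicates 1 to 3, against 59.2, 36.5, 32.3 and 23.9 CPM in WT replicates 1 to 4 (log2 fold change 0.40 ± 0.33 SE; edgeR, adjusted p = 0.956). Leaving out knockout replicate 1 gave 0.01, and leaving out WT replicate 1 gave 0.70. Il18, named after its values were seen, averaged 31.0 ± 4.97 CPM in knockout (SD, n = 3) and 29.7 ± 8.46 CPM in WT libraries (SD, n = 4), a log2 fold change of 0.06 ± 0.24 (SE) with a 95% interval of -0.47 to 0.59. Il1a was at 0.19 ± 0.39 and Hmgb1, an alarmin released from dying cells, at -0.24 ± 0.23 (log2 ± SE). The groups overlapped for all 4.

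Transcriptional controllers had 0 of 7 past an unadjusted p of 0.05, with 5 above 0. Irf2, which in mice drives Gsdmd transcription, had 61.5, 63.2 and 61.3 CPM in knockout, against 61.3, 116, 73.0 and 68.1 CPM in WT libraries (log2 fold change -0.36 ± 0.23 SE). Irf8, which in mice drives the NAIP genes and Nlrc4, was at 91.8 ± 18.7 CPM in knockout (SD, n = 3) and 89.4 ± 4.56 CPM in WT libraries (SD, n = 4). Spi1, which encodes the myeloid factor PU.1, was at 0.27 ± 0.27 and Irf1 at -0.07 ± 0.24 (log2 ± SE), and all of these had adjusted p-values of at least 0.956 (edgeR). Spi1 stood at 50.2 CPM in knockout replicate 3 and between 22.5 and 35.9 CPM elsewhere.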

How the data were processed

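RNA-seq of liver nonparenchymal cells was analysed in 3 knockout and 4 WT libraries, grouped by their titles. The deposited table holds raw counts, whole numbers of reads for each gene. FastQC 0.11.9, STAR 2.7.10a, SAMtools 1.9, featureCounts 2.0.3 and GRCm39 are named in the submitters' processing notes, while annotation and counting settings are not given there. The labels' protocols name the TruSeq RNA v2 kit, which does not mark strand.

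The whole table was fitted with edgeR 4.0.16 in R 4.3.3 (quasi-likelihood test, robust, TMM, group as the only term) after filterByExpr (minimum count 10, total 15) left 14077 genes, with Benjamini-Hochberg adjustment over all of them and a threshold of 0.05. The SE is the log2 fold change over the root of its F statistic. Log2 CPM used a prior count of 2. The code was tested on simulated data. Pairs of libraries differed far beyond counting noise (38.0 to 294 times the expected chi-square). Alternatives were DESeq2 1.42.0, limma 3.58.1 (voom), other scalings and filters, and leaving out libraries; lengths other than the principal transcript were added after seeing the data. Named pathway genes are the 2 with the smallest p and the 2 with the highest CPM of each list; 2 genes that these rules name are not reported here. The members and lists were chosen with earlier results of these data known.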

Additional observations from a re-analysis of the deposited data

Results flagged for a closer look

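In 3 genes, all in the pathway around the core and none of them a member, 1 WT library lay far from the other 3 WT libraries. Naip2 was at 83.7 CPM in WT replicate 2, and this gap made up 0.926 of the range of the WT group. Ifi206 was at 12.1 CPM in WT replicate 1 (0.875 of the range), and Ifi213 at 25.4 CPM in the same library (0.942 of the range), where knockout replicates 1 and 2 were also high. With 4 libraries the limit for such a gap is 0.829, chance passes it in about 1 group in 20, and 45 values were examined. The Ifi206 and Ifi213 genes were examined because their values had been seen. WT replicate 2 also held the highest Kupffer cell and endothelial marker sums, whose part in the Naip2 value was not tested.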

How the results depend on the processing

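No member passed the adjusted threshold under any alternative, also at a threshold of 0.1, and the smallest adjusted p was 0.273 (Nlrc4, voom with library quality weights). Nlrp3, Aim2, Pycard, Casp1 and Casp4 stayed above 0 and Nlrc4 below 0 in the 17 alternatives. No paired analysis was possible because the labels give the groups no shared replicate numbers. The cause of the changes below was not tested.

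DESeq2 called 66 genes over the whole table (edgeR 0) and 1 pathway gene, Naip1 (-1.39), with 1 member at unadjusted p under 0.05. Voom with quality weights called 9 genes, with 3 members and 12 pathway genes at unadjusted p under 0.05, and turned Gsdmd (-0.052), Casp8 (0.022), Chmp3 (0.018) and Irf8 (-0.068) round. Scaling by library size only called 3 genes and put Irf8 at -0.001, and no filter called 3. Members without overlap were 2 with DESeq2's size factors (6.09% of all genes) and 2 with no filter (5.66%), Pycard and Nlrc4, and 1 with library size only (4.44%), which was Nlrc4 in place of Pycard. Leaving out WT replicate 2 and knockout replicate 3 together called 2 genes and gave 1 member and 5 pathway genes at unadjusted p under 0.05 and 4 members without overlap, with Gsdmd at -0.073, Nek7 at 0.017, Casp8 at 0.025 and Irf8 at -0.064.

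Leaving out 1 library at a time gave 0 to 1 members and 1 to 7 pathway genes at unadjusted p under 0.05, and 1 to 3 members without overlap. Over these fits the log2 fold change ranged from -0.012 to 0.478 for Gsdmd, -0.186 to 0.108 for Irf1, -0.095 to 0.183 for Irf8, -0.086 to 0.279 for Il18, -0.271 to 0.426 for Il1a and -0.109 to 0.468 for Spi1. The difference in log2 ratio ranged from -0.103 to 0.367 for Nlrp3 to Pycard and -0.496 to 0.159 for Gsdmd to Casp1. With 1 library fewer the exact permutation tests of ratios cannot go below p = 0.0667 (2 against 4) or 0.1 (3 against 3), so they say nothing about stability.

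Depth does not limit the more abundant members, whose lowest count is 291 (Pycard), as much as the spread between libraries. Nlrp3 and Nlrc4 rest on 66 to 302 counts per library. The 95% intervals reach up to 1.08 (Nlrp3) and down to -0.88 (Nlrc4) on the log2 scale, so the data cannot show that the members are unchanged.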
